A study of Mus musculus with 8 samples.

Results

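Prg2, Epx and Cpa3 were followed as transcripts of other granulocyte lineages in cultures of mouse bone marrow that were grown towards neutrophils. Each was read from 1 probe set, 1422873_AT for Prg2, 1449136_AT for Epx and 1448730_AT for Cpa3, so the members are 3 of the 45101 probe sets on the Affymetrix arrays. The deposited table lists probe sets by identifier only. The gene of each of the 3 was taken as stated in the definition of the group and was not checked against probe sequences.

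The wild-type day 4 group and the miR-223 null day 4 group were progenitors kept for 4 days in IMDM medium for isotope labelling (SILAC) with G-CSF, the growth factor of neutrophil formation, and SCF, the ligand of the receptor c-Kit. Their sort gate took cells with c-Kit and without Gr-1 on the surface. The wild-type day 8 group and the miR-223 null day 8 group were mature neutrophils, which had both factors for 6 days and then 42 hours without SCF, and whose sort gate took cells with Gr-1 and without c-Kit. Each group had 2 arrays, 8 in all, made from total RNA. No strain, age, sex or number of mice is given in the sources used here, and nothing states that replicates came from separate mice or cultures. The p-values therefore measure the spread between arrays, which may be technical. Days differ in time, in SCF and in both sort markers, and these cannot be told apart. Pearson's r between the replicates was 0.996 to 0.998 over 45037 probe sets, and array medians lay between 5.44 and 5.49.

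Prg2 encodes major basic protein and Epx encodes eosinophil peroxidase, both stored in the large granules of eosinophils and toxic to parasites and to host tissue. Cpa3 encodes carboxypeptidase A3, a protease stored with heparin in the secretory granules of mast cells and also made by basophils. Some granule protein genes of these lineages are switched on early, in progenitors. Mast cells keep c-Kit on their surface and need SCF to survive, while mature eosinophils and neutrophils do not. GATA factors act in the eosinophil, basophil and mast cell lineages and are low in neutrophils. The null mice lack miR-223, a microRNA of myeloid cells.

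The microRNA that separates the genotypes is shown as its main mature strand, from RefSeq (GRCm38.p6, chrX:96242884-96242905, plus strand), with the seed, bases 2 to 8, in capitals.
mmu-miR-223-3p: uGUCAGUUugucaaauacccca

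All 3 members were called lower at day 8 in both genotypes, and the 250 bases before the transcription start are shown for Epx and Cpa3. No promoter of Prg2 was at hand. RefSeq promoters (GRCm38.p6) matched 2 of the 3 members, Epx at chr11:87875537-87875786 and Cpa3 at chr3:20242182-20242431, both on the minus strand. Capitals mark the letters GATA, the core read by the factors named after it, and the letters TATAAA, which form a promoter box bound by the general transcription machinery. Both were searched on both strands.
Epx: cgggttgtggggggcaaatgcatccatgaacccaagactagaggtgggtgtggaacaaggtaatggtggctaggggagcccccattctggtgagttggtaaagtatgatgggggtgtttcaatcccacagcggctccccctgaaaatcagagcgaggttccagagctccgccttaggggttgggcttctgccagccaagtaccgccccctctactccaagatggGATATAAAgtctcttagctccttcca
Cpa3: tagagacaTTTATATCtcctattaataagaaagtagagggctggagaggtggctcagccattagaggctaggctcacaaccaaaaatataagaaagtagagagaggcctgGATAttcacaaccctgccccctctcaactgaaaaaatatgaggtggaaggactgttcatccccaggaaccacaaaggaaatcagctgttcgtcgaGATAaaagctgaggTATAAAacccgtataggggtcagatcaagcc

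The Epx window held 1 GATA, from 26 to 23 bases before the start, and it overlapped the 1 TATAAA, which began 24 bases before the start. The Cpa3 window held 3 GATA, the nearest from 45 to 42 bases before the start within an AGATAA, a longer form of the motif. It also held 2 TATAAA, 1 of them from 31 to 26 bases before the start, and the other overlapping the farthest GATA, both of these on the strand opposite to the gene. Of the 32817 RefSeq promoters of this length, 53.6% held GATA, 9.99% held AGATAA and 12.4% held TATAAA. The E-box CANNTG, read by helix-loop-helix factors, had 1 match in Epx and 2 in Cpa3, and was found in 66.2% of promoters. TTGCNNAA, a form of the C/EBP site, was found in neither window and in 9.57% of promoters. These matches describe letters and not sites of binding.

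Both eosinophil genes and the mast cell gene were far lower in day 8 neutrophils than in day 4 progenitors, in both genotypes. Prg2 fell 46.5-fold in wild type and 72.1-fold in null cells, Cpa3 17.2-fold and 21.0-fold, and Epx 6.16-fold and 5.98-fold, each from 2 arrays against 2. The day 8 values of Prg2 and Epx lay under 5.51, the median level of all probe sets, so the sizes of their falls depend on how low signal was treated: with values under 5.51 raised to it, Prg2 fell 35.4-fold and 28.9-fold and Epx 2.75-fold and 2.76-fold. No member was called different between the genotypes on either day.

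**Figure D1:**
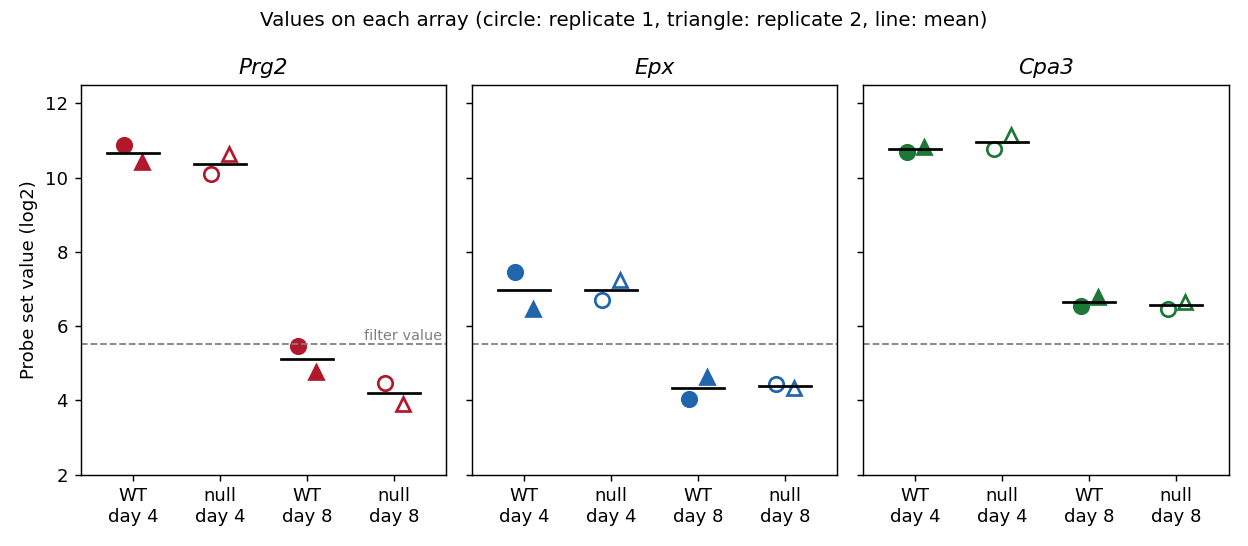
Log2 value of the Prg2, Epx and Cpa3 probe sets on each of the 8 arrays, by genotype (WT filled, null open) and day, with circles for replicate 1, triangles for replicate 2 and a line at the group mean. All day 4 values lie above all day 8 values of the same gene. Within a genotype this held for 46.2% of tested probe sets in wild type and 45.3% in null. The day 8 values of Prg2 and Epx lie under the dashed filter value of 5.51.

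Prg2, the granule protein that gives eosinophils their strongly basic core, stood at 10.88 and 10.43 on the log2 scale on the wild-type day 4 arrays and at 10.09 and 10.63 on the null day 4 arrays (replicates 1 and 2). These values lay between the 91.9th and the 95.4th percentile of their arrays, ranked over the 45037 probe sets that are not controls. On day 8 Prg2 read 5.47 and 4.76 in wild type and 4.47 and 3.91 in null. The day 8 values ranged from the 24.1st to the 49.9th percentile of their arrays. All 4 day 4 values thus stood far above all 4 day 8 values, with the null day 8 arrays the lowest. Day 8 arrays wholly below day 4 arrays were found for 46.2% of tested probe sets in wild type and 45.3% in null.

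The log2 mean of Prg2 went from 10.65 ± 0.32 to 5.12 ± 0.50 in wild type (SD, n = 2), a change of -5.54 (SE 0.26, limma, adjusted p = 8.5e-09). In null cells it went from 10.36 ± 0.38 to 4.19 ± 0.40 (SD, n = 2), a change of -6.17 (SE 0.26, limma, adjusted p = 3.4e-09). Among the 22519 probe sets tested, 6 fell further than Prg2 in wild type and 1 did in null cells. The day 8 means lay under the filter value of 5.51, the median level of all probe sets. Prg2 thus passed the filter through its day 4 values alone, which set a fall but not its size. Size under 5.51 may depend on background correction, which is not described in the sources used here. With values under 5.51 raised to it, the genotype with the larger fall turned from null to wild type (-5.14 in wild type, -4.85 in null).

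Epx, the peroxidase that makes hypobromous acid from bromide in eosinophils, read 7.47 and 6.47 on the wild-type day 4 arrays and 6.71 and 7.24 on the null day 4 arrays, between the 61.1st and the 70.8th percentile of their arrays. Probe sets differ in how strongly they bind, so percentiles do not order the transcripts of different genes. On day 8 it read 4.05 and 4.64 in wild type and 4.45 and 4.33 in null, between the 26.2nd and the 36.7th percentile. The day 8 arrays lay wholly below the day 4 arrays, as for 46.2% of tested probe sets in wild type and 45.3% in null. The genotypes overlapped on both days.

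The log2 mean of Epx went from 6.97 ± 0.71 to 4.34 ± 0.42 in wild type (SD, n = 2), a change of -2.62 (SE 0.30, limma, adjusted p = 1.1e-05). In null cells it went from 6.97 ± 0.37 to 4.39 ± 0.08 (SD, n = 2), a change of -2.58 (SE 0.30, limma, adjusted p = 1.2e-05). The number of tested probe sets with a larger fall was 663 in wild type and 732 in null. With values under 5.51 raised to it, both changes were -1.46 and still called. Prg2 and Epx passed the filter through their day 4 values alone, so a probe set that passed it this way had to differ between days.

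Cpa3, the mast cell carboxypeptidase, read 10.71 and 10.82 on the wild-type day 4 arrays and 10.76 and 11.14 on the null day 4 arrays, between the 94.7th and the 96.1st percentile. On day 8 it read 6.53 and 6.78 in wild type and 6.47 and 6.65 in null, between the 62.4th and the 66.1st percentile. All 4 day 8 values were above the filter value, unlike those of Prg2 and Epx.

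The log2 mean of Cpa3 went from 10.76 ± 0.08 to 6.66 ± 0.17 in wild type (SD, n = 2), a change of -4.10 (SE 0.13, limma, adjusted p = 6.7e-10). In null cells it went from 10.95 ± 0.27 to 6.56 ± 0.13 (SD, n = 2), a change of -4.39 (SE 0.13, limma, adjusted p = 3.6e-10). Larger falls were found in 66 probe sets in wild type and in 62 in null. Raising values under 5.51 to it left both changes of Cpa3 as they were, since it had none.

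In wild type 3 of 3 members were called lower at day 8, where 41.7% of all tested probe sets were called lower. In null cells 3 of 3 members were called lower, beside 39.9% of all. The 3 members also had day 8 arrays wholly below the day 4 arrays in each genotype, which held for 46.2% of tested probe sets in wild type and for 45.3% in null. A fall as such was therefore common, and for Prg2 and Epx, which passed the filter through day 4 alone, the count adds nothing to their values. A called fall of 16-fold or more was found in 0.351% of probe sets in wild type and 0.48% in null. Cpa3 was among these in both genotypes. So was Prg2, for which a fall, though not its size, was set by how it passed the filter. The middle of the 3 member changes was that of Cpa3, -4.10 for wild-type cells and -4.39 for null cells. The median change of all tested probe sets was -0.04 and 0.00. Scaled to the spiked hybridization controls, the median of all tested probe sets moved to -0.21 and -0.35. Rises then made up 36.1% of the wild-type calls (46.0% as deposited) and 29.9% of the null calls (47.4% as deposited). The members' falls were larger under that scaling, with wild-type changes of -2.79 for Epx and -5.70 for Prg2 and null changes of -2.93 and -6.52. In bulk RNA, fewer cells of a lineage and less RNA per cell cannot be told apart.

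**Figure D2:**
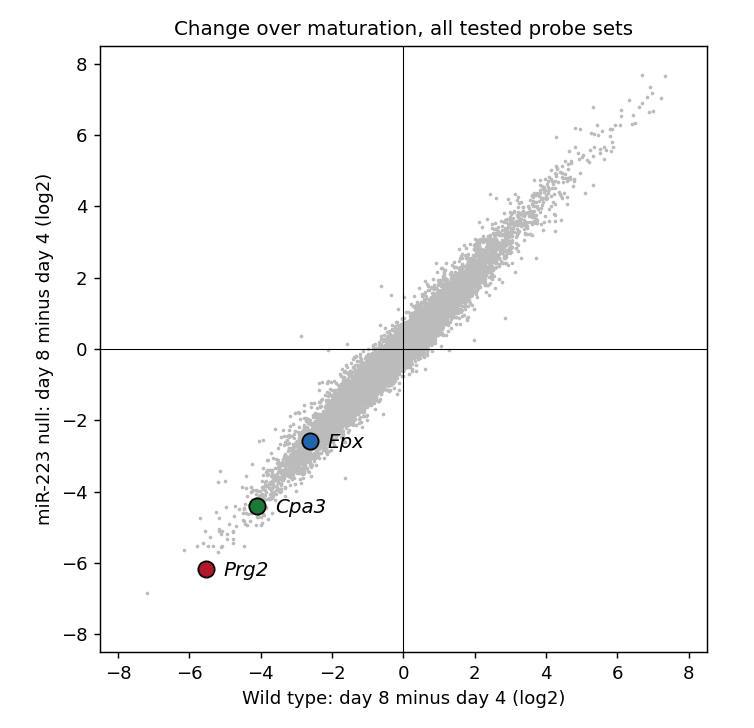
Log2 change from day 4 to day 8 in wild type (horizontal) and in null cells (vertical) for each of the 22519 tested probe sets (grey) with the 3 members in colour. Prg2 lies near the lower left end with -5.54 and -6.17, Cpa3 at -4.10 and -4.39, and Epx at -2.62 and -2.58.

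The members were read on the same arrays, and their falls were set side by side in each genotype as a description with no test. Prg2 fell further than Cpa3 by 1.43 on the log2 scale in wild type and by 1.78 in null, and Cpa3 fell further than Epx by 1.48 and 1.81. The order Prg2, Cpa3, Epx was the same in both genotypes. The day 8 values of Prg2 and Epx lay under 5.51, and whether background limited how far they could fall was not tested. These sizes are therefore values of the probe sets and not of the transcripts. A sign of RNA integrity also moved with the day. The log2 signal of beta-actin at its 3' over its 5' control probe set was 0.36 to 0.44 on day 4 arrays and 0.10 to 0.17 on day 8 arrays, while that of Gapdh was between -0.08 and 0.05 on all arrays. The part of RNA integrity in the falls was not tested.

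Within a group the eosinophil genes varied more than most probe sets. The replicates of Epx in wild-type day 4 cells differed by 1.00 on the log2 scale, against a median of 0.14 over all tested probe sets on these 2 arrays. Set against probe sets within 0.5 of the same mean in the same group, the replicate gap of Prg2 lay at the 97.8th percentile in wild-type day 4 cells, the 99.7th in null day 4 cells, the 99.2nd in wild-type day 8 cells and the 97.0th in null day 8 cells. The gap of Epx lay at the 99.8th, 98.8th and 98.6th percentile in the first 3 of these groups and at the 38.5th in null day 8 cells. On day 4 Prg2 and Epx were high on the same arrays, wild-type replicate 1 and null replicate 2. Cpa3 was steadier: its gap lay at the 50.8th percentile in wild-type day 4 cells and between the 62.9th and the 77.2nd on day 8, but at the 99.2nd in null day 4 cells, where replicate 2 was again the higher. With 2 arrays a group, whether this spread came from the cells or from the arrays was not tested.

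The null effect was then asked for on each day. In progenitors the log2 mean of Prg2 was 10.36 in null and 10.65 in wild type (difference -0.29, SE 0.26, 95% confidence interval -0.88 to 0.29, limma, adjusted p = 0.62), with overlapping arrays. The Epx means were nearly equal, at 6.97 in both genotypes (difference 0.0038, interval -0.67 to 0.68, adjusted p = 1.00). Cpa3 differed by 0.19 (10.95 in null against 10.76, interval -0.10 to 0.48, adjusted p = 0.50). Limma called 0 of 3 members, and 0 reached 0.05 before adjustment, while 2.72% of all tested probe sets were called at this age of the culture. For Epx the interval still allows a change of up to 1.60-fold upward or 1.59-fold downward, and the bounds of Cpa3 are 1.40-fold upward and 1.07-fold downward.

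In mature neutrophils the Prg2 values of null cells, 4.47 and 3.91, were both under those of wild type, 5.47 and 4.76, so the arrays did not overlap. The difference in log2 mean was -0.93 (SE 0.26, interval -1.51 to -0.34), and it missed the threshold (limma, adjusted p = 0.074, unadjusted p = 0.0053). Of all tested probe sets 20.6% were lower in null without overlap at day 8, and 29 had a larger difference downward than Prg2. All 4 values lay under 5.51, so with values raised to it the difference was 0 by construction. Scaled to the hybridization controls it was -1.02 and was called (adjusted p = 0.010, the lowest over the alternatives, which reached 1). Leaving out replicate 1 or 2 of wild-type day 8 gave -0.57 or -1.28, and leaving out replicate 1 or 2 of null day 8 gave -1.21 or -0.65, with no call in any of the 4.

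Epx (4.39 in null against 4.34) and Cpa3 (6.56 against 6.66) had overlapping genotypes at day 8. Their differences were 0.05 (interval -0.62 to 0.72, adjusted p = 0.95) and -0.09 (interval -0.39 to 0.20, adjusted p = 0.76) by limma. Limma thus called 0 of 3 members in neutrophils, where 5.31% of all tested probe sets were called, and 1 member, Prg2, was under 0.05 before adjustment. The direction of Epx was not kept in 4 of 19 alternatives. It turned when scaled to the hybridization controls (-0.045) and without wild-type day 8 replicate 1 (-0.25), among others. The direction of Cpa3 turned without wild-type day 8 replicate 2 (0.029).

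**Figure D3:**
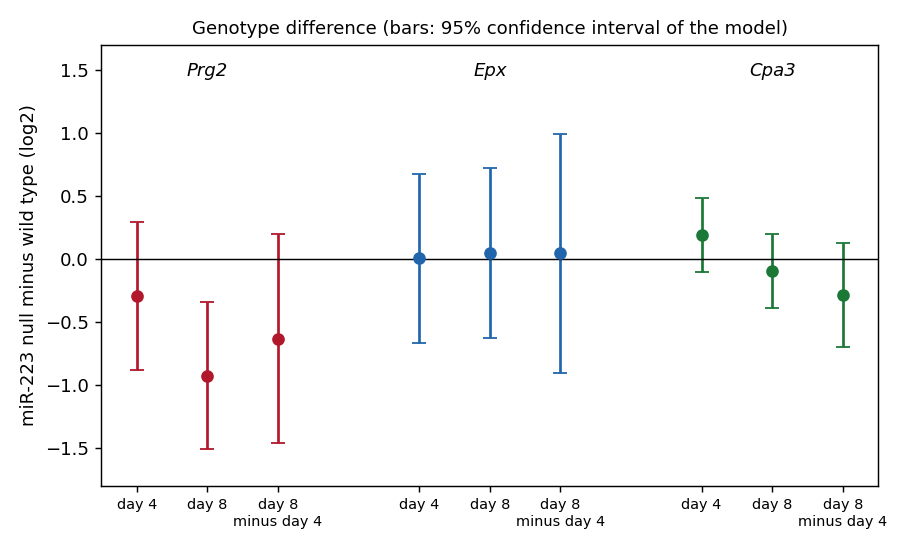
Null minus wild type on the log2 scale for each gene at day 4, at day 8 and as the difference between the days, with points for the limma estimate (2 arrays a group) and bars for its 95% confidence interval. Prg2 at day 8 (-0.93) is the 1 value whose interval leaves out 0, and it was not called after adjustment over all tested probe sets.

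Whether the null effect differed between the days was tested by the interaction. The null effect on Prg2 was lower at day 8 than at day 4 by 0.63 on the log2 scale (difference -0.63, SE 0.37, interval -1.46 to 0.19, limma, adjusted p = 0.44). That on Cpa3 was lower by 0.28 (difference -0.28, interval -0.70 to 0.13, limma, adjusted p = 0.50). That on Epx differed by 0.04 (interval -0.91 to 0.99, limma, adjusted p = 0.98). Limma called 0 of 3 members, and 0 were under 0.05 before adjustment, beside 1.66% of tested probe sets called. The intervals allow a day 8 effect up to 2.76-fold below that of day 4 for Prg2 and up to 1.99-fold above it for Epx. With values under 5.51 raised to it, the difference of Prg2 turned to 0.29.

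The order of the 4 groups by mean was wild-type day 4, null day 4, wild-type day 8 and null day 8 for Prg2. For Cpa3 it was null day 4, wild-type day 4, wild-type day 8 and null day 8, and for Epx null day 4, wild-type day 4, null day 8 and wild-type day 8. All 3 members were called lower at day 8, beside 41.7% of tested probe sets in wild type and 39.9% in null. Prg2 and Epx passed the filter through day 4 alone, so for them these calls add nothing to their values. The genotype comparisons within a day called no member, beside 2.72% of tested probe sets at day 4 and 5.31% at day 8. The nearest to a call was Prg2 at day 8, whose arrays did not overlap. Of all tested probe sets, 20.6% were lower in null without overlap on that day. The Prg2 values there all lay under 5.51, and with values raised to it the difference was 0 by construction.

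Likeness to each member was measured as the Euclidean distance between log2 profiles over the 8 arrays, each centred on its own mean. The profile nearest to Cpa3 was that of 1455841_S_AT, at a distance of 0.35, and the nearest to Prg2 that of 1434745_AT, at 1.23, against median distances of 6.02 and 8.37 over the 22518 other tested probe sets. The means of 1434745_AT were 10.70 and 10.81 on day 4 and 5.50 and 5.12 on day 8 (wild type, then null). Neither identifier comes with a gene name. The nearest profile to Epx lay at 0.75. The members were not nearest to each other: seen from Prg2, Cpa3 was number 61 in likeness and Epx number 702. Seen from Cpa3, Epx was number 735 and Prg2 number 860. Seen from Epx, Cpa3 was number 4462 and Prg2 number 18326, at a distance of 4.83, above the median distance of 3.80. Centred profiles of this kind share the day step of the same 8 arrays, so they describe its size more than any other pattern.

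**Figure D4:**
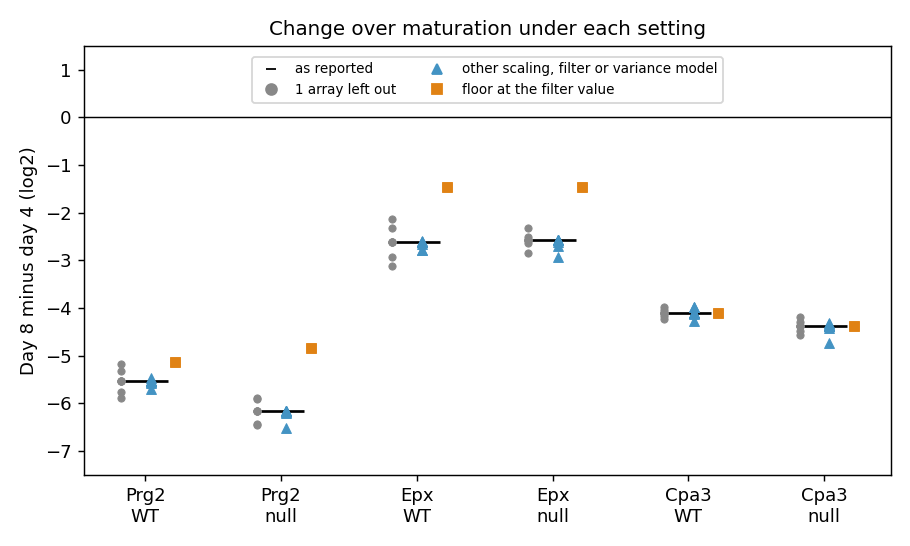
Log2 change from day 4 to day 8 for each gene and genotype as reported (black line), with 1 array left out (grey circles), under other scalings, filters or variance models (blue triangles) and with values under 5.51 raised to it (orange squares). All points lie below 0, and the orange squares move to -5.14 and -4.85 for Prg2 and to -1.46 in both genotypes for Epx, and do not move for Cpa3.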

How the data were processed

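The deposited table holds 1 log2 value per probe set and array, as made by the authors. The base was read from the values (2.23 to 15.06). GCOS is named in the submitters' processing notes, and how probes were summarized, corrected for background and normalized is not given in the sources used here. Values were used as deposited. Of 45037 probe sets without the 64 controls, 22519 were tested, those whose 8-array mean reached the median of such means (5.51). All 3 members passed. One model with 4 group means was fitted in limma 3.58.1 (lmFit, eBayes with intensity trend, R 4.3.3), with 4 residual degrees of freedom and 5 two-sided contrasts. Adjusted p is Benjamini-Hochberg over all tested probe sets, with calls below 0.05. The steps were tested on simulated data. An exact permutation test of 2 arrays against 2 cannot go below 0.333, so calls rest on the variance shared across probe sets. The median SE of a change was 0.12, and the number of arrays limits precision. Fold changes are ratios of these deposited log2 values.

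The members and lists were chosen with earlier results of these data known. The named features are the 3 members and, by profile distance, their nearest probe sets. The other genes of the eosinophil, basophil and mast cell lists, and the markers of neutrophils, progenitors and other cells, were not analysed here, since no table at hand pairs identifiers with genes. The loss of miR-223 was for the same reason not checked. The 19 alternatives covered filter, variance model, scaling, a floor, a replicate block and leaving out each array.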

Additional observations from a re-analysis of the deposited data

How the results depend on the processing

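All 6 falls of the members from day 4 to day 8 were called under all 19 alternatives (limma, adjusted p up to 0.00063). Prg2 and Epx passed the filter through their day 4 values alone, so for them these calls add nothing to their values. For the genotype differences and their interaction, 1 of 168 values was called, Prg2 at day 8 under scaling to the hybridization controls (-1.02). With values under 5.51 raised to it, Prg2 at day 8 and Epx at day 8 were 0 by construction, and the interaction was 0.29 for Prg2 and -0.0038 for Epx. Epx turned to -0.0098 at day 4 under cyclic loess, and under the hybridization controls to -0.045 at day 8 and -0.14 in the interaction. With 1 array left out, Epx ranged from -0.49 to 0.50 at day 4, from -0.25 to 0.35 at day 8 and from -0.45 to 0.54 in the interaction, and Cpa3 at day 8 from -0.22 to 0.029. The cause was not tested. The replicate number as a block changed no call of a member: Prg2 at day 8 was -0.93 with an adjusted p of 0.057. Labels do not tie equal numbers together, and deviations of same-numbered arrays correlated at -0.05 to 0.22, so they were not taken as pairs. The probe sets called were 613 at day 4, 222 without the intensity trend, 98 with only the groups compared and 129 to 1674 with 1 array left out, the last without wild-type day 4 replicate 2. They were 1195 at day 8, 747 without the trend, 694 under the hybridization controls and 355 to 1691 with 1 array left out, the lowest without null day 8 replicate 1. In the interaction they were 373, 129 without the trend, 209 after quantile normalization, 198 after cyclic loess, 124 under the hybridization controls and 48 to 893 with 1 array left out, the lowest without null day 8 replicate 2 and the highest without wild-type day 4 replicate 2. Fitting only the groups compared could not be done for the interaction, which uses all of them. Prg2 and Epx lay under 5.51 on day 8, and whether background limits their values there was not tested.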
